A study of Neurospora crassa with 16 samples.

Results

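The genes described here are 9 heat shock genes of the filamentous fungus Neurospora crassa, chosen by locus from the 9730 counted genes. They are hsp80 (NCU04142), hsp88 (NCU05269), hsp70-1 (NCU09602), hsp98 (NCU00104), hsp30 (NCU09364), hsp60 (NCU01589), hsp70-5 (NCU08693), grp78 (NCU03982) and the heat shock factor gene hsf-1 (NCU08512), and all 9 were found in both count files. Their levels were read in 2 polyadenylated RNA libraries of the Δlsd1 strain N5555, which is mat a and in which the hygromycin marker hph replaces lsd1, the gene of lysine-specific demethylase 1. The comparison strain is wild-type N3752, which is mat A and entered only through 2 tables that the authors deposited, one of higher and one of lower genes. The Δlsd1 RNA came from germinated conidia, asexual spores grown in shaken Vogel's medium with 1.5% sucrose for 16 h at 32 °C, and the labels name no heat treatment. The mutant and wild-type strains thus differ in mating type as well as in lsd1, and their libraries belong to different series, so these differences cannot be told apart from the loss of lsd1.

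Heat shock proteins are molecular chaperones that bind unfolded or newly made proteins and help them fold, refold or reach the right compartment. Each compartment has its own set. In the cytosol, hsp70-1 encodes an Hsp70 that binds short exposed stretches, hsp88 an Hsp110 relative that acts with Hsp70, hsp80 the Hsp90 chaperone of signalling proteins, hsp98 a disaggregase of the ClpB family and hsp30 a small heat shock protein. In mitochondria, hsp70-5 encodes the Hsp70 that pulls imported precursors through the inner membrane, and hsp60 the chaperonin in which many of them fold. In the endoplasmic reticulum (ER), grp78 encodes BiP, the Hsp70 that serves secreted proteins. The factor encoded by hsf-1 binds heat shock elements in the promoters of such genes. These compartments are background knowledge of the genes; the deposited files do not annotate them.

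The Δlsd1 libraries held 7017726 reads on genes in replicate 1 and 6797672 in replicate 2. Nothing in the labels says whether they came from separate cultures, so the spread between them may be technical. The targeted gene itself (NCU09120, which the files do not name) had 41 and 65 reads in the Δlsd1 libraries, and the authors' deposited table gave it a normalised mean of 88.7 in Δlsd1 against 675 in wild type. The labelled tissue was checked against 4 spore genes, and con-8 (10634 and 12813 reads) and eas (9721 and 2241 reads) were abundant in the Δlsd1 libraries, while con-6 and con-10 had 272 reads or fewer. Of these 4 genes, the authors' deposited tables call con-10 lower in Δlsd1 (-1.75 on the log2 scale, adjusted p = 8.70e-15) and con-6 higher (1.41, adjusted p = 0.162). Whether the makeup of the spore and hyphal material has a part in the chaperone values was not tested. In bulk RNA such as this, fewer cells of a type and less RNA per cell cannot be told apart.

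In Δlsd1, 4 of the 9 heat shock genes were called lower than in wild type and 0 were called higher. These were hsp80 and hsp88 in the cytosol and both mitochondrial genes, hsp60 and hsp70-5. A gene is called here when it stands in the authors' deposited tables, in which the smallest change is 2-fold and the largest p before adjustment is 0.0497. Among all 9730 counted genes 7.76% were called lower and 3.13% higher. Among the 1118 that carry a symbol, as all 9 do, 8.77% were lower and 2.95% higher. These shares, here and below, are not matched for level. Of the 1523 counted genes with a normalised Δlsd1 mean of at least 1000, 51 were called lower and 86 higher. A cut on the Δlsd1 level itself leaves out genes called lower more readily. By compartment, 2 of 5 cytosolic genes, 2 of 2 mitochondrial genes, 0 of 1 ER genes and 0 of 1 transcription factor genes were called lower. The 9 genes were chosen with these calls known, so their count is a description. The compartments hold too few genes for a comparison between them to be tested.

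The largest of these changes was at hsp80 (chromosome V, 4974497 to 4977515 on assembly NC12), the fungal Hsp90. It had 2380 and 2929 normalised counts in the Δlsd1 libraries, a mean of 2655 ± 388 (SD, n = 2), against a wild-type mean of 7312 in the authors' deposited table. Both Δlsd1 values lay far below the wild-type mean, at 32.5% of it in replicate 1 and 40.1% in replicate 2. On the log2 scale the difference was -1.46 (adjusted p = 6.57e-15, both from the authors' deposited table). Among the 755 genes called lower, hsp80 stood at rank 344 when ordered by fold in the authors' deposited table and at rank 16 by the normalised counts lost. Its change was thus of middling fold but at a gene with the 15th highest wild-type mean of that list.

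The other cytosolic gene called lower, hsp88 (chromosome IV, 5521208 to 5524962), encodes the Hsp110 relative. It had 711 and 816 normalised counts in the Δlsd1 libraries, against a wild-type mean of 1855 in the authors' deposited table. Replicate 1 was at 38.3% and replicate 2 at 43.99% of that mean, again with both libraries on the same side. The authors' deposited table put the change at -1.28 on the log2 scale (adjusted p = 5.79e-10).

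Both mitochondrial chaperone genes were called lower, and their libraries lay closest together. The chaperonin gene hsp60 (chromosome II, 3012906 to 3015387) had 202 and 218 normalised counts in the Δlsd1 libraries, from 128 reads in each, against a wild-type mean of 501 in the authors' deposited table. The authors' deposited table put its change at -1.25 on the log2 scale (adjusted p = 2.95e-05). The mitochondrial Hsp70 gene hsp70-5 (chromosome IV, 4072108 to 4075127) had 974 and 1011 normalised counts in the Δlsd1 libraries, against a wild-type mean of 2052 in the authors' deposited table. Its change there of -1.05 on the log2 scale (the authors' deposited table, adjusted p = 4.75e-07) lay close to the 2-fold limit of the table, and replicate 2 alone was at 49.3% of the wild-type mean. It stood at rank 699 of the 755 lower genes by fold in the authors' deposited table.

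All 4 were at least 2-fold below the wild-type mean in each library taken alone, as were 73.9% of the 755 genes called lower. Summed, the 4 genes came by the authors' deposited tables to 4621 normalised counts in Δlsd1 against 11722 in wild type, or 39.4%. Of the counts lost, 65.6% came from hsp80, 15.4% from hsp88, 14.9% from hsp70-5 and 4.10% from hsp60. Per kb of gene span, the order of the 4 genes by normalised mean in the authors' deposited tables was the same in Δlsd1 and in wild type, with hsp80 first, then hsp70-5, hsp88 and hsp60. On that per-length scale hsp80 stood 4.32 times above hsp88 in Δlsd1 and 4.90 times in wild type by the authors' deposited tables, and hsp70-5 stood 3.88 times above hsp60 in Δlsd1 and 3.37 times in wild type.

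**Figure D1:**
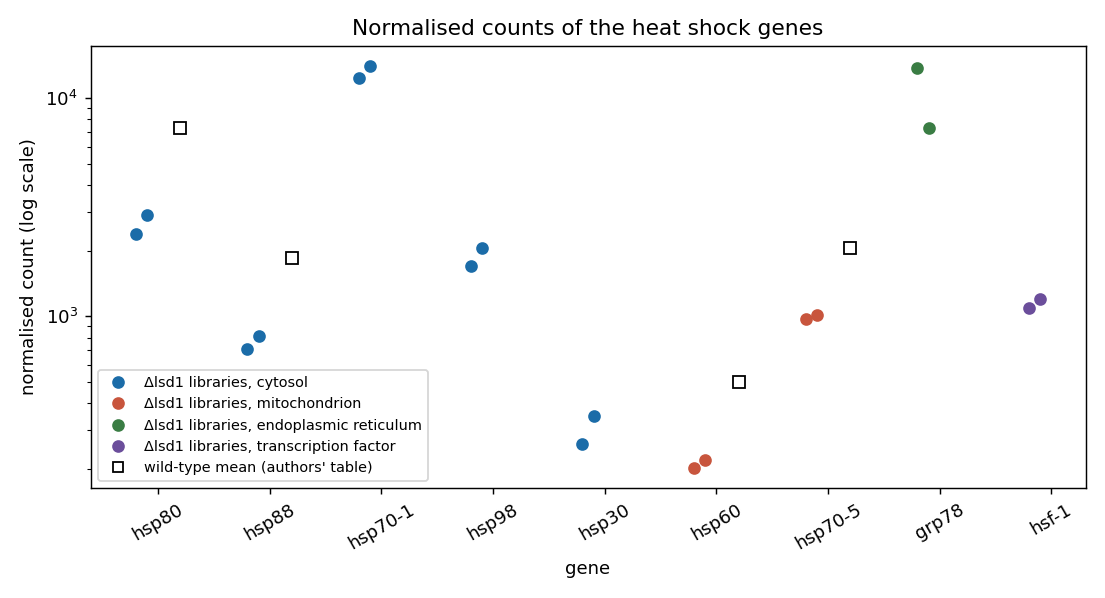
Normalised counts (log scale) of the 9 heat shock genes, with filled points for each Δlsd1 library (replicate 1 left) coloured by compartment and an open square for wild type (the mean in the authors' deposited table), given only for called genes. Both Δlsd1 points of hsp80, hsp88, hsp60 and hsp70-5 lie below the square, and those of grp78 lie far apart.

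**Figure D2:**
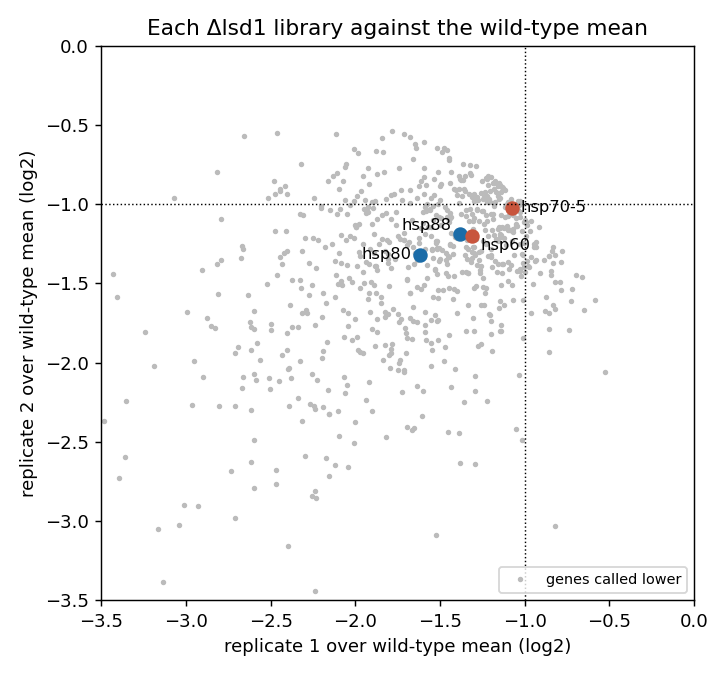
Each gene called lower by its level in replicate 1 (horizontal) and in replicate 2 (vertical) of Δlsd1 over wild type (the mean in the authors' deposited table), on the log2 scale, with dotted lines at 2-fold. The 4 heat shock genes, coloured by compartment as in the plot of normalised counts, all lie below both lines, with hsp70-5 nearest to them; 30 of the 755 genes lie outside the axes.

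The other 5 genes were in neither table, so no wild-type level exists for them here. The cytosolic Hsp70 gene hsp70-1 (chromosome II, 79724 to 82693) had 12421 and 14071 normalised counts in the Δlsd1 libraries, and the disaggregase gene hsp98 (chromosome III, 2634913 to 2638616) had 1707 and 2066. The small heat shock gene hsp30 (chromosome I, 3586694 to 3588207) was the lowest of these 5, with 259 and 349 normalised counts. The factor gene hsf-1 (chromosome II, 3404179 to 3409122) had 1092 and 1202 normalised counts, and grp78 (chromosome VI, 2329825 to 2332792) had 13766 and 7303. Absence from the tables means that a gene changed less than 2-fold or did not reach the table's p, and the tables do not say which. Among the 1523 counted genes with a normalised Δlsd1 mean of at least 1000, as 4 of these 5 have, 137 were in the authors' deposited tables. Of these, 51 were lower and 86 higher.

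Within Δlsd1 the levels of the 9 genes, per kb of gene span, ranged over more than an order of magnitude. The cytosolic Hsp70 gene hsp70-1 was highest at 397 ± 35.6 CPM (gene counts scaled to a common library size) per kb (SD, n = 2), followed by grp78 at 316 ± 137, and the ranges of these neighbours overlapped. Then came hsp80 at 78.2 ± 11.6 CPM per kb, hsp98 at 45.3 ± 6.18 and hsp70-5 at 29.2 ± 0.821, each with a range clear of its neighbours. The factor gene hsf-1 had 20.6 ± 1.43 CPM per kb, hsp88 18.1 ± 1.79 and hsp30 17.8 ± 3.74. The range of hsp30 overlapped those of hsp88 and hsf-1, and hsf-1 cleared hsp88 only narrowly, at 19.6 against 19.3 CPM per kb in their nearest libraries. The mitochondrial chaperonin gene hsp60 was lowest, at 7.47 ± 0.436 CPM per kb. Among all counted genes hsp70-1 stood at rank 178 by this measure, grp78 at rank 221 and hsp60 at rank 4366. The gene span includes introns and untranslated parts, so these are levels per annotated length, not per transcript length.

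**Figure D3:**
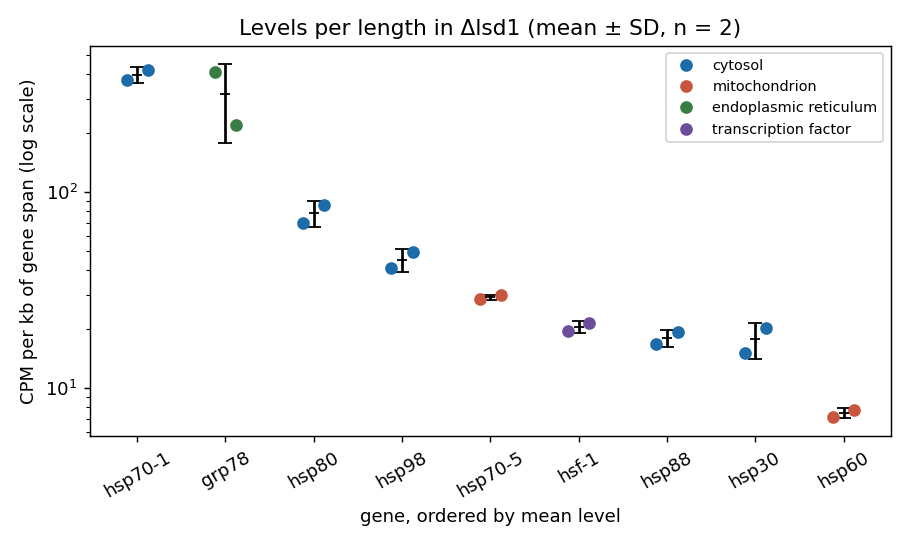
Levels of the 9 genes in Δlsd1 in CPM per kb of gene span (log scale), ordered by mean, with a point per library (replicate 1 left) coloured by compartment and bars for the mean ± SD (n = 2). The order runs from 397 for hsp70-1 to 7.47 for hsp60, and the points of grp78 spread most.

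The Δlsd1 libraries differed most, among these genes, at the ER chaperone gene. There were 8808 reads of grp78 in replicate 1 and 4312 in replicate 2, a 1.88-fold difference after scaling, or 0.91 on the log2 scale (95% exact binomial interval 0.86 to 0.96), and the exact binomial test gave an adjusted p = 1.73e-265. This interval covers counting error only. By the size of its log2 difference grp78 stood at rank 245 of the 7319 genes tested. A difference of at least 2-fold, which grp78 did not reach, was found at 2.58% of all tested genes and at 1.26% of the 956 genes with a mean of at least 1000 reads. Each library alone would place grp78 differently in the order of levels, first in replicate 1 with 412 CPM per kb and below hsp70-1 in replicate 2 with 219.

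The other 8 genes leaned the opposite way, by less. Replicate 1 over replicate 2 was -0.43 on the log2 scale for hsp30, -0.30 for hsp80, -0.28 for hsp98 and -0.18 for hsp70-1, and these 4 cytosolic genes passed the exact binomial test (adjusted p of 0.0185, 3.01e-08, 3.36e-05 and 1.30e-14). The remaining cytosolic gene hsp88 stood at -0.20 and hsf-1 at -0.14, and neither passed (adjusted p = 0.104 and 0.184). The mitochondrial genes hsp60 (-0.12) and hsp70-5 (-0.06) did not pass either (adjusted p = 0.730 and 0.697). In all, 5 of 9 genes passed, beside 27.1% of all tested genes. That share is not matched for depth, and at deeper genes the test passes smaller differences. These values rest on TMM scaling, which sets the libraries level at most genes; with total counts in its place, hsp30 no longer passed (adjusted p = 0.0637) and hsp70-5 changed sign, to 0.016.

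**Figure D4:**
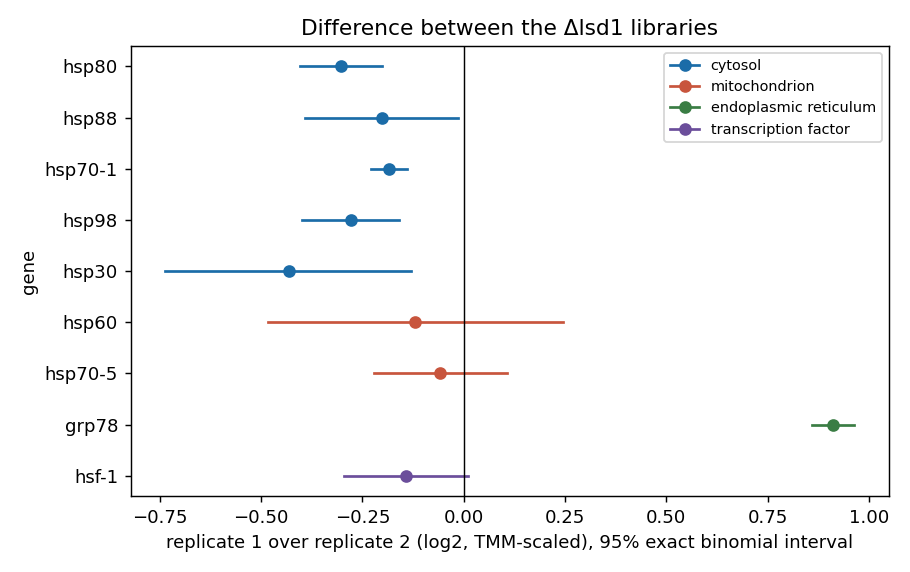
Replicate 1 over replicate 2 of Δlsd1 on the log2 scale after TMM scaling for each of the 9 genes, with 95% exact binomial intervals that cover counting error only. The point of grp78 lies at 0.91 and the other 8 lie between -0.43 and -0.06.

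Some other groups of genes also leaned to one library and others leaned little, and their values are given beside that of grp78. Of the 4 spore genes, eas, which encodes the hydrophobin of the spore coat, was higher in replicate 1 by 2.00 on the log2 scale. The difference was 0.87 for con-6 and 0.72 for con-10, while con-8 stood at -0.39. All 4 passed the exact binomial test, beside 27.1% of all tested genes. In summed CPM the 4 spore genes came to 2879 in replicate 1 and 2302 in replicate 2. Their part in the difference at grp78 was not tested. Of 30 proteasome genes 20 passed as higher in replicate 1 (median log2 difference over all 30 of 0.23), and of 29 genes of respiratory complex I 23 passed in that direction and 1 in the other (median 0.26), beside 13.1% of all tested genes that were higher in replicate 1. Of 18 mitochondrial import genes 3 passed as higher in replicate 1 and 0 in the other direction (median 0.05). Of 7 cytosolic ribosomal protein genes 3 passed as higher in replicate 1 and 2 in the other direction (median -0.06). The shares over all tested genes are again not matched for depth. The ER disulfide isomerase gene erp38 stood at 0.02, with 2745 and 2490 reads. It was the only gene in the list of ER folding genes, so it does not stand for other ER genes.

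**Figure D5:**
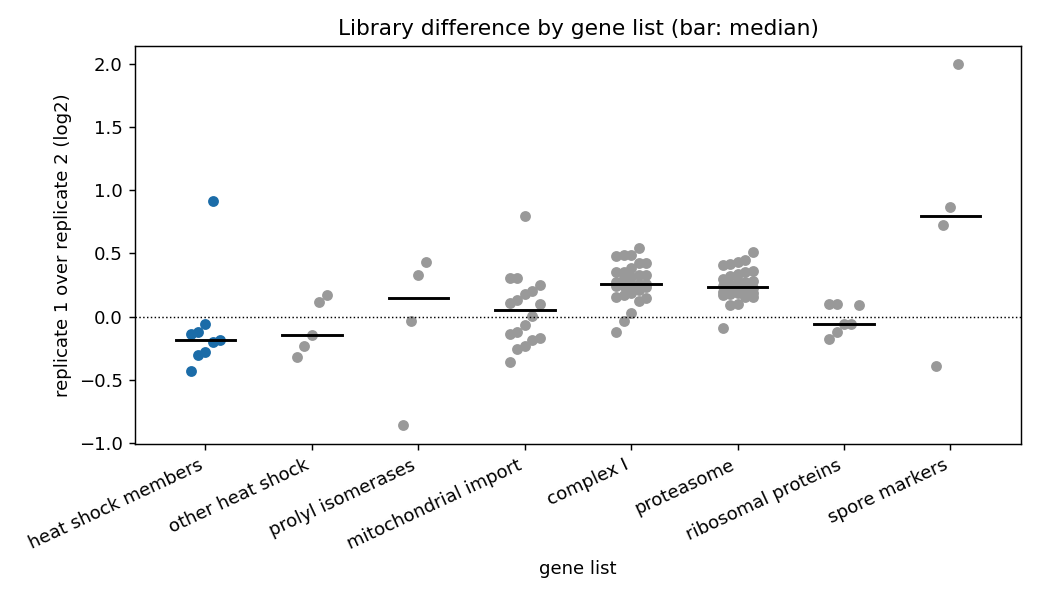
Replicate 1 over replicate 2 of Δlsd1 on the log2 scale for the 9 heat shock genes and for 7 other gene lists, with a point per gene and a bar at each median. Of the 9 heat shock genes 8 lie below 0 and grp78 lies at 0.91, while complex I (median 0.26) and proteasome genes (median 0.23) lie mostly above 0.

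None of 5 other heat shock or stress factor genes was in the authors' deposited tables, a count that is near the 7.76% of all genes called lower and 3.13% called higher. Among them hsp70-2 had 3907 and 4313 normalised counts in the Δlsd1 libraries, and hsp78, in yeast a mitochondrial relative of ClpB, had 614 and 718. The second heat shock factor gene hsf-2 had 681 and 627, hsp90a had 1817 and 1614, and msn-1 had 5146 and 6421. Per kb of gene span, hsp78 had 19.0 and 22.2 CPM in the Δlsd1 libraries, below the 40.9 and 49.7 of its cytosolic relative hsp98.

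Among other mitochondrial genes, 0 of 18 genes of the import machinery and 0 of 29 complex I genes were called, beside 7.76% of all genes called lower and 3.13% called higher. Partners of the mitochondrial Hsp70 were in the first list. The gene of its membrane anchor, tim44, had 225 and 252 normalised counts in the Δlsd1 libraries. The gene of the J protein that stimulates it, tim14, had 824 and 936. The gene of tom70, a receptor that in yeast takes precursors from cytosolic chaperones, had 513 and 444. None of 30 proteasome genes and none of 7 cytosolic ribosomal protein genes was called, beside the same shares over all genes. In the list of 7 a count of 0 lies near those shares. Whether the counts of 0 in the longer lists lie below the shares was not tested. Whether these lists differ from the chaperones was not tested.

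Peptidyl-prolyl isomerases speed a slow step of folding. Of 4 such genes 1 was called lower and 1 higher, beside 7.76% and 3.13% of all genes. The gene fkr-4 of the FK506-binding family was called lower, with 87.5 and 157 normalised counts in the Δlsd1 libraries. The authors' deposited table put its change at -1.84 on the log2 scale (adjusted p = 1.22e-09). Another gene of that family, fkr-3, was called higher, with 82.8 and 84.7 normalised counts in the Δlsd1 libraries and a change of 1.17 on the log2 scale by the authors' deposited table (adjusted p = 0.0308). The cyclophilin gene csr-1 (11636 and 9257 normalised counts) and fkr-2 (10386 and 7698) were in neither table. Replicate 1 over replicate 2 on the log2 scale was 0.43 for fkr-2 and 0.33 for csr-1, on the side of grp78. It was -0.03 for fkr-3 and -0.86 for fkr-4. The gene fkr-2 is the left neighbour of hsp80, 1879 bp away.

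The 9 genes lie on 6 chromosomes, and 0 of them overlapped one of the 250 deposited regions. The share of all counted genes that overlap a region was not computed here, nor were their distances. The count and the distances below are therefore a description only. The nearest region was 44403 bp from hsp88 (chromosome IV, 5569365 to 5587446) and the farthest nearest region was 482818 bp from hsf-1. For the other called genes that distance was 92438 bp at hsp80, 91545 bp at hsp60 and 342726 bp at hsp70-5. It was 53091 bp at hsp30, 61883 bp at hsp70-1, 137750 bp at hsp98 and 229676 bp at grp78, which like hsf-1 are in neither table. Whether distance to a region has a part in the calls was not tested. Of the 18 genes directly beside them 16 were counted, and the authors' deposited tables hold 1 of them, a count near the 7.76% of all genes called lower and 3.13% called higher. It was NCU10352 next to hsp30, called higher by 1.31 on the log2 scale (adjusted p = 3.33e-07). Its annotated span shares 147 bp with that of hsp30, so reads in that stretch may come from either gene, and no label or header says whether counting used strand. In the counts, 0.117% and 0.088% of listed reads were set apart as ambiguous in replicates 1 and 2. Whether these include reads of that stretch is not given. The span of hsf-1 shares 928 bp with NCU14141, which is not in the count files.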

How the data were processed

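The authors' deposited count files hold raw read counts per gene, and their closing rows that name no gene were left out (reads outside genes, 12.3% and 12.7% of all listed reads; reads aligned to more than 1 place, 3.74% and 3.38%, which may include reads of similar Hsp70 genes). Bowtie2, DESeq2 and deepTools are named, per the submitters' processing notes; which build and counting program were used is not given in these sources. Per the file headers, the authors' deposited tables give normalised means (a signal), the ratio of those means and its log2, with a p-value before and after adjustment. The authors' Δlsd1 means were recovered exactly as (count + 1) divided by size factors of 0.640 and 0.591, and these factors gave the normalised counts of each library. Wild-type counts were not used here, so no model across strains was fitted and the folds have no standard error. The chromatin and bisulfite samples of the series were not analysed here. The deposited region list gives positions (unit other) on NC12.

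CPM were scaled with TMM (edgeR 4.0.16, R 4.3.3) over genes that reached 10 counts in both libraries. How a gene's reads divided over the libraries was tested with an exact two-sided binomial test, Benjamini-Hochberg adjusted over 7319 genes at 0.05 (scipy 1.17.1). It was tried on simulated counts that held sampling noise only, so that trial does not cover other variation between libraries. The binomial test compares 2 libraries and covers sampling noise only. Spread between the Δlsd1 libraries beyond sampling noise, which edgeR names the biological coefficient of variation, was 15.3% as a common value over genes. This spread may be technical, and the binomial p-values leave it out. DESeq2 1.42.0 gave alternative size factors. Locus identifiers matched 9729 of 9730 counted genes to the reference table. Named were the 9 genes, tabled neighbours, up to 4 called genes per list and direction, and the tabled genes most like hsp80 and hsp60; other list genes were chosen for their role after their values were seen. The members and lists were chosen with earlier results of these data known. Lists by symbol held no chaperonin (CCT) gene, 1 ER folding gene and 3 trehalose genes. Coding lengths were not used here, so levels are per kb of gene span; lists that need protein or promoter sequence were not run.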

Additional observations from a re-analysis of the deposited data

How the results depend on the processing

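All 4 calls of lower genes (hsp80, hsp88, hsp60 and hsp70-5) also had an adjusted p under 0.05 in the authors' deposited table. They stayed at least 2-fold lower without the added 1, without replicate 1 and without replicate 2, so the count was 4 under each of these. Only these 4 of the 9 genes have wild-type means here, so that count could fall but not rise. The p-values were not computed again without a replicate. Without the added 1, without either replicate and with TMM scaling of the Δlsd1 counts, the log2 fold changes of the 4 genes ranged from -1.62 to -1.02. The TMM values were brought to the level of the authors' Δlsd1 means, and the wild-type means were kept. They therefore cannot show whether the folds depend on scaling between the strains. The number of genes that differed between the libraries was 5 with TMM, with DESeq2 size factors, without a filter and with the authors' size factors (an alternative chosen after seeing the data), and 4 with total counts, where hsp30 did not pass. With total counts hsp70-5 changed sign, from -0.06 to 0.016, since that scaling moved every gene by 0.07 on the log2 scale towards replicate 1. Levels per kb moved by less than the spread between replicates under total counts. Leaving out a library tests nothing of a level with 2 libraries; grp78 had 412 CPM per kb in replicate 1 and 219 in replicate 2, and its mean of 316 holds for neither. Lengths of coding sequence and the search of promoters for heat shock elements were planned and not run. No paired analysis was possible because the Δlsd1 libraries are the only RNA samples here and the wild-type values are a mean without replicate numbers. Depth limits hsp60 most, with 128 reads in each library and an interval of -0.48 to 0.25 for its log2 difference between them.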

Other observations

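By distance in the pair of per-library log2 levels over wild type (means from the authors' deposited tables) (2 libraries, 1059 other tabled genes), the genes most like hsp80 were NCU09069 (distance 0.035), NCU12021 (0.038) and NCU02244 (0.051). Those most like hsp60 were ppm-2 (0.014), aod-3 (0.034) and acon-2 (0.035). Of these, ppm-2 was the most abundant, with normalised means in the authors' deposited table of 2681 in Δlsd1 against 6443 in wild type, while aod-3 had an adjusted p = 0.0736 there. Likeness over 2 libraries is a description of their values only.

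Genes of trehalose, a sugar that protects fungal cells in heat, were in neither table (0 of 3 genes, near the 7.76% of all genes called lower and 3.13% called higher). The gene ccg-9, which encodes a trehalose synthase, had 6408 reads in replicate 1 and 8923 in replicate 2 of Δlsd1. Its log2 difference was -0.60 (exact binomial adjusted p = 1.40e-140), beside 1027 of the 7319 tested genes that passed as higher in replicate 2. The trehalase gene tre-2 stood at -0.08, and tre-1 had 20 and 6 reads and was not tested.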
